A study of Mus musculus with 12 samples.

Results

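The collagen genes are the protein-coding genes of the deposited mouse gene table whose symbol has the form Col, a type number, a and a chain number. This rule, which uses no measured value, took 44 genes of 55401 in the table. They were divided by the known assembly of their proteins into 11 fibrillar chains, 8 chains of basement membrane collagens (type IV with types XV and XVIII) and 25 other chains.

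Collagens are triple-helical proteins of the extracellular matrix. Fibrillar collagens are secreted as procollagens, trimmed and cross-linked into fibrils, while type IV chains form the sheet-like network of basement membranes and the multiplexins XV and XVIII sit in basement membranes and at vessel walls. In the liver, stellate cells and portal fibroblasts are the known main sources of types I and III, and hepatocytes are known to make type XVIII. Deposition of fibrillar collagen by activated stellate cells is the hallmark of liver fibrosis.

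Liver RNA was compared between 2 genotypes, each under control feeding and under the NIAAA model, in which mice are given ethanol to injure the liver. All groups are labelled as male C57BL/6 mice aged 8 to 10 weeks, and all carry the floxed gene of the acyltransferase LPCAT3. FLOX-NC is the genotype LPCAT3flox/flox on control feeding with 3 libraries, and FLOX-ALD is this genotype on the NIAAA diet with 3 libraries. LKO-NC is the genotype LPCAT3flox/flox-cre on control feeding with 2 libraries used here, and LKO-ALD is this genotype on the NIAAA diet with 3 libraries. These groups are also called floxed controls (FLOX-NC), cre controls (LKO-NC), floxed NIAAA livers (FLOX-ALD) and cre NIAAA livers (LKO-ALD). The labels name neither the promoter that drives cre nor the exons it removes, and they leave unsaid whether each library is a separate animal. The p-values therefore measure library-to-library spread, part of which may be technical. No group carried cre without the floxed gene.

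The libraries held 39.1 M to 73.6 M estimated read counts, and the collagen genes together took 21762 to 50624 of them per library. Mitochondrially encoded genes took 12.1% to 26.4% of the counts, with the highest shares in LKO-NC replicate 1, FLOX-ALD replicate 2 and FLOX-ALD replicate 3. The targeted gene Lpcat3 stood at 103, 87.1 and 101 CPM among floxed controls and at 29.2 and 37.2 CPM among cre controls. Its level was 37.9, 43.2 and 30.5 CPM among floxed NIAAA livers and 10.8, 15.4 and 9.80 CPM among cre NIAAA livers, so the cre libraries were below the floxed ones under both feedings, although neither genotype difference passed the threshold by edgeR (adjusted p = 0.176 on control feeding and 0.132 under the model). FLOX-ALD replicate 1 went against its label of sex, with Xist at 772 CPM against at most 2.95 CPM elsewhere. The Y-linked Ddx3y, Eif2s3y, Kdm5d and Uty were at 0 counts in that library. Values without it are given below for the average effects on Col27a1, Col5a3 and Col13a1 and for Col15a1 in floxed mice. The hepatocyte markers, led by Alb with a mean of 28800 FPKM, dominated every library as the label liver implies.

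Levels below are of 2 kinds. CPM is the estimated count relative to library size, after scaling between libraries (TMM), and groups were tested on counts scaled in this way. FPKM is the authors' value relative to depth and transcript length, used here to compare 1 gene or transcript with another and to sum genes of a class, and no test was run on it except as a named alternative. A gene was tested where its counts passed edgeR's filter on low counts, which 34 of the 44 collagen genes did: 9 fibrillar, 8 basement membrane and 17 other chains. A gene was called where edgeR's quasi-likelihood test gave an adjusted p (Benjamini-Hochberg over all 19014 genes tested) under 0.05. The average feeding effect is the mean, over both genotypes, of the log2 difference between the NIAAA model and control feeding. In bulk tissue, fewer cells of a type and less RNA per cell cannot be told apart.

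The most abundant collagen transcript per length was Col18a1, at 68.7 FPKM on average over the 11 libraries and 38.5 to 86.0 FPKM among them. This basement membrane chain, whose end part is released as endostatin, made up 51.2% to 73.8% of the summed collagen FPKM. The fibrillar chains Col27a1 and Col5a3 followed with means of 14.7 and 6.79 FPKM. Their ranges were wide, from 1.76 to 35.4 FPKM for Col27a1 and from 0.482 to 19.1 FPKM for Col5a3. These 3 genes together held 56.5% to 88.0% of the collagen FPKM of a library.

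Chains known from scars were lower. Col3a1 averaged 3.27 FPKM, Col1a2 1.73 FPKM and Col1a1 1.09 FPKM, beside 3.45 FPKM for Col4a1, 2.77 FPKM for Col14a1, 2.03 FPKM for Col13a1, 1.86 FPKM for Col4a2 and 1.65 FPKM for Col6a1. Among fibrillar chains, Col27a1 and Col5a3 took 36.8% to 89.8% of the summed FPKM. From Col4a1 to Col1a1 the libraries of neighbouring genes overlapped in range, so the order within that stretch is not separated by the spread.

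**Figure D1:**
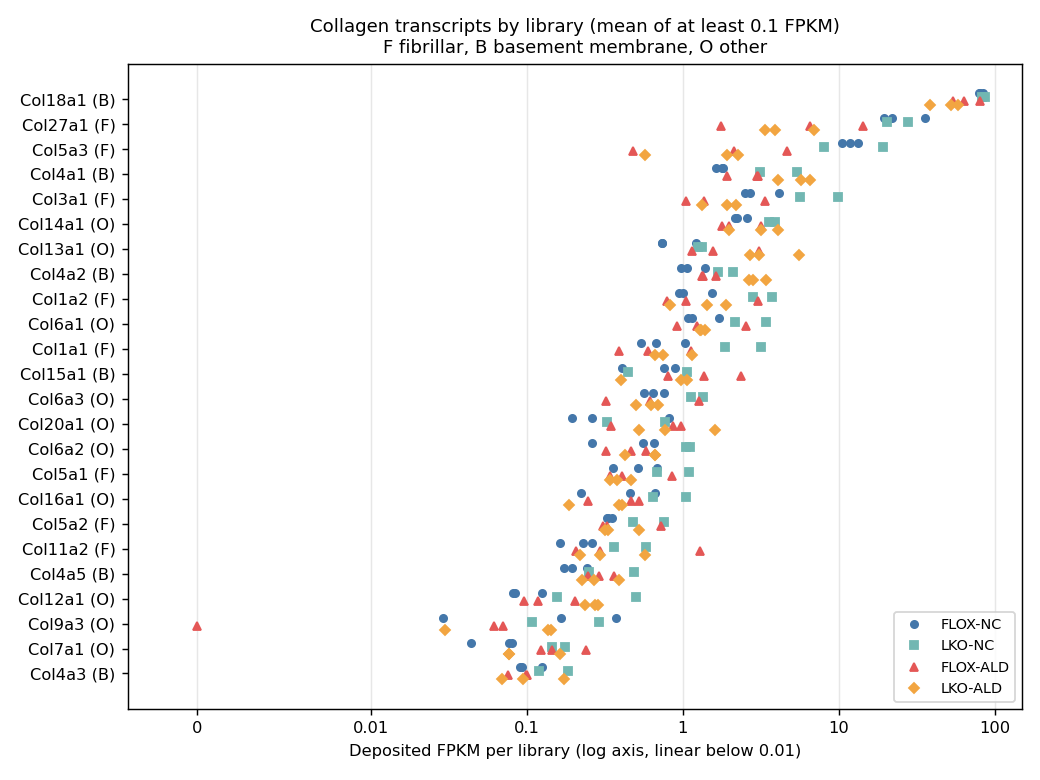
Deposited FPKM of the 24 collagen genes with a mean of at least 0.1 FPKM (horizontal log axis, linear below 0.01), 1 marker per library, coloured and shaped by group, with genes ordered by their mean. Col18a1 lies between 38.5 and 86.0 FPKM in all 11 libraries, while Col27a1 and Col5a3 spread over more than a factor of 10.

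The 10 collagen genes that did not pass the filter were Col2a1 and Col11a1 of the fibrillar class and Col6a4, Col9a1, Col9a2, Col10a1, Col17a1, Col19a1, Col22a1 and Col26a1 of the other class. Their counts were at most 21 in any library, and Col9a2 was at 0 in all of them. Col28a1 passed but was at 17 counts or fewer. Among the 10, Col2a1 and Col9a1 are known as chains of cartilage.

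Feeding was the comparison in which collagen genes were called. Over both genotypes, 3 fibrillar transcripts fell under the NIAAA model (Col27a1, Col5a3 and Col3a1) and 1 transmembrane collagen, Col13a1, rose. These are 4 of 34 genes tested, where 4.61% of all genes tested were called (2.2% higher and 2.41% lower). At an unadjusted p under 0.05 there were 10 members, against 22.7% of all genes, and DESeq2 called 7, against 11.6%. The upstream sequences of these 4 genes are shown because they are the members called by edgeR for the average feeding effect. Each is the stretch of 250 bases before the transcription start given by RefSeq for GRCm38.p6, read 5′ to 3′ on the gene's strand.

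Col27a1, chr4:63215162-63215411, + strand: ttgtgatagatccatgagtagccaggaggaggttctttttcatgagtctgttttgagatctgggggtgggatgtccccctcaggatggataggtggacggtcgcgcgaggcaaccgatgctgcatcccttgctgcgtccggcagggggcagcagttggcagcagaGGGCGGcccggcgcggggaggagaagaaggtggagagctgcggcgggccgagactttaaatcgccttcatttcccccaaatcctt
Col5a3, chr9:20815068-20815317, - strand: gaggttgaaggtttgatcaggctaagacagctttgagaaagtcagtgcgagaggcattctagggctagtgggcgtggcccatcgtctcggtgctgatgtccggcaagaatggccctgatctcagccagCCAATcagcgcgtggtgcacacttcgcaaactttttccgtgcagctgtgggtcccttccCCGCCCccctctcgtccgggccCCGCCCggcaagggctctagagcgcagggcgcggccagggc
Col3a1, chr1:45311288-45311537, + strand: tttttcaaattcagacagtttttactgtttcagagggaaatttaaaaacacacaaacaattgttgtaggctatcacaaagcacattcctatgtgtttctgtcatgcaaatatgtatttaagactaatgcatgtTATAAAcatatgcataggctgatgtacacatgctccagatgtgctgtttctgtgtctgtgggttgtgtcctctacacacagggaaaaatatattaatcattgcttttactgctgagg
Col13a1, chr10:61979109-61979358, - strand: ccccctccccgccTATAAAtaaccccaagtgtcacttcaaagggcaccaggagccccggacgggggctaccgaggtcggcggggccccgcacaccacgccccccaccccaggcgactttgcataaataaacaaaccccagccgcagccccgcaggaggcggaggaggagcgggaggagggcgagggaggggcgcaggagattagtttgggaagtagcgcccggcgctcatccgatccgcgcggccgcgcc

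Capitals mark matches on either strand to 3 core promoter motifs. They are the letters TATAAA of the TATA box, the letters CCAAT that name their box, and the letters GGGCGG of the GC box. The Col27a1 window held the letters of a GC box, the Col5a3 window those of a CCAAT box and of GC boxes. The Col3a1 and Col13a1 windows each held the TATA letters, near the middle of the Col3a1 window and near the upstream end of the Col13a1 window. Matches were counted anywhere in a window, whatever their distance from the start. Over all 32851 RefSeq windows of this length, 12.4% held the TATA letters, 33.8% the CCAAT letters and 32.7% the GC box letters. Base composition differed, with 35.2% G and C in the Col3a1 window against 59.6% for Col27a1, 62.8% for Col5a3 and 68.8% for Col13a1, beside a median of 52.4% over all windows. Letters of an AP-1 site, TGAGTCA, which 4.46% of all windows hold, were searched on both strands too. So were AGGTCA, part of many nuclear receptor sites, in 14.0% of all windows, and GTTAAT, part of HNF1 sites, in 6.43% of them. None of these last 3 runs of letters is in the 4 windows shown. A match describes the letters and shows no binding.

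Col27a1 (ENSMUSG00000045672, chromosome 4, 63214004 to 63334991, + strand, mm10) encodes the chain of type XXVII, a fibrillar collagen known from developing cartilage. Its level was 169, 190 and 312 CPM among floxed controls and 160 and 247 CPM among cre controls. Under the NIAAA model it was 16.6, 124 and 54.6 CPM among floxed NIAAA livers and 33.2, 53.1 and 28.7 CPM among cre NIAAA livers. All 6 libraries of the model lay below all 5 control libraries, as in 4 of the 34 members and 2.6% of all genes (0 members and 2.25% lay above), with the lowest level in FLOX-ALD replicate 1. Floxed controls averaged 223 ± 77.0 CPM (SD, n = 3) and cre controls 203 ± 61.1 CPM (n = 2), while floxed NIAAA livers averaged 65.1 ± 54.6 CPM (n = 3) and cre NIAAA livers 38.3 ± 13.0 CPM (n = 3).

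Over both genotypes Col27a1 fell by 2.09 on the log2 scale (SE 0.435, 4.27-fold lower, edgeR adjusted p = 0.0272). Taken alone, floxed mice differed by -1.78 (SE 0.589, edgeR adjusted p = 0.253) and cre mice by -2.41 (SE 0.640, edgeR adjusted p = 0.0894), neither past the threshold. The interaction, -0.63 on the log2 scale (SE 0.855), had an edgeR adjusted p of 0.842, so a difference between the genotypes in this response was not detectable. The main transcript, ENSMUST00000036300 with 61 exons, held 82.5% to 92.7% of the gene's FPKM. The average effect was called in 4 of 11 fits that each left out 1 library. It missed the threshold without any 1 of FLOX-NC replicates 1, 2 and 3, LKO-NC replicates 1 and 2 or LKO-ALD replicates 1 and 3, with an edgeR adjusted p of up to 0.083 and a log2 difference between -2.54 and -1.86 over all 11 fits. Without FLOX-ALD replicate 1 it was -1.86 (edgeR adjusted p = 0.0102), and without that library and LKO-NC replicate 1 it was -2.00 (edgeR adjusted p = 0.0212).

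Col5a3 (ENSMUSG00000004098, chromosome 9, 20770050 to 20815067, - strand, mm10) encodes a chain of type V, a collagen that co-assembles with other fibrillar chains. It stood at 78.0, 85.5 and 97.3 CPM among floxed controls and at 129 and 60.0 CPM among cre controls. FLOX-ALD had 3.84, 33.9 and 15.8 CPM, and LKO-ALD had 14.1, 15.5 and 4.27 CPM. Again every library of the model lay below every control library, and FLOX-ALD replicate 2 was the highest of the 6 in both genes. The average effect was a decrease of 2.68 on the log2 scale, or 6.39-fold (SE 0.539, edgeR adjusted p = 0.0289).

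Within each genotype Col5a3 did not pass the threshold, where floxed mice differed by -2.28 (SE 0.730, edgeR adjusted p = 0.249) and cre mice by -3.07 (SE 0.793, edgeR adjusted p = 0.0899). Almost all of its FPKM, 99.3% to 100% per library, was assigned to 1 transcript of 67 exons. The average effect was called in 5 of 11 fits with 1 library left out and lost without any 1 of FLOX-NC replicates 1, 2 and 3, LKO-NC replicates 1 and 2 or LKO-ALD replicate 1, with an edgeR adjusted p of up to 0.119. Without FLOX-ALD replicate 1 it was -2.44 (edgeR adjusted p = 0.0147), and without that library and LKO-NC replicate 1 it was -2.11 (edgeR adjusted p = 0.0508). The ratio of Col27a1 to Col5a3 FPKM ran from 1.06 to 5.84 among the libraries, so the 2 genes did not keep a fixed proportion.

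**Figure D2:**
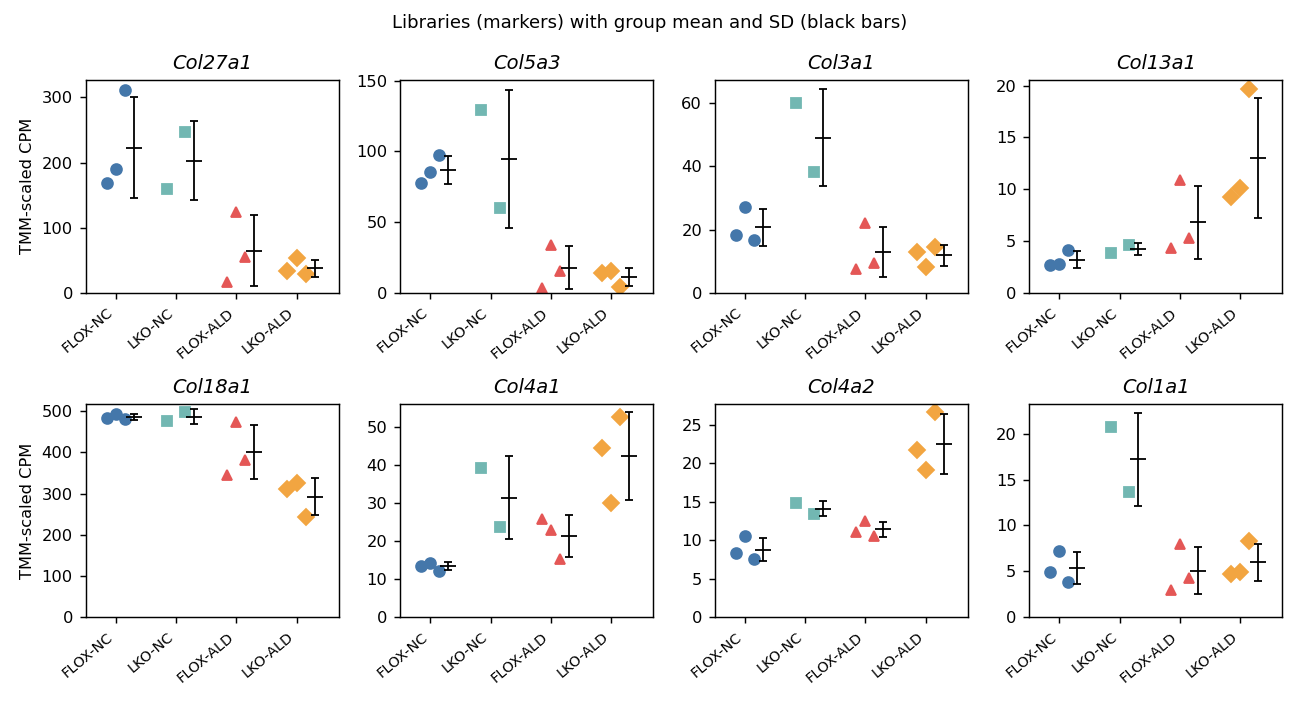
TMM-scaled CPM of 8 collagen genes in every library (markers, by group), with the group mean and SD in black, on vertical axes that start at 0 and differ between panels. Col27a1 and Col5a3 are lower in all 6 libraries of the NIAAA model than in all 5 control libraries, Col3a1 and Col1a1 are highest in LKO-NC, and Col4a2 is highest in LKO-ALD.

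Col3a1 (ENSMUSG00000026043, chromosome 1, 45311538 to 45349706, + strand, mm10) encodes type III collagen, the chain of reticular fibres. It reached 18.2, 27.3 and 16.6 CPM among floxed controls and 59.9 and 38.3 CPM among cre controls, against 7.61, 22.0 and 9.33 CPM among floxed NIAAA livers and 12.8, 8.20 and 14.6 CPM among cre NIAAA livers. The LKO-NC libraries were the highest of all, and FLOX-ALD replicate 2 lay within the range of FLOX-NC. Over both genotypes Col3a1 fell by 1.36 on the log2 scale (SE 0.287, 2.57-fold lower, edgeR adjusted p = 0.0252). In cre mice it fell by 2.05 (SE 0.425, 4.13-fold, edgeR adjusted p = 0.0488), the single collagen gene called there, where 0.957% of all genes tested were called and 0.663% were called lower.

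In floxed mice the difference of Col3a1 was -0.68 (SE 0.385, edgeR adjusted p = 0.499). The interaction was -1.37 (SE 0.572, edgeR adjusted p = 0.520), so the 2 responses are not shown to differ. The average effect was called in 7 of 11 fits with 1 library left out, and not without FLOX-NC replicate 1, FLOX-NC replicate 2, LKO-NC replicate 1 or LKO-ALD replicate 1, with an edgeR adjusted p of up to 0.113. Without both FLOX-ALD replicate 1 and LKO-NC replicate 1 it was -1.04 (edgeR adjusted p = 0.138). The call in cre mice held in 3 of 11 such fits, those without a FLOX-ALD library, and was lost without any 1 of the other 8 libraries (edgeR adjusted p up to 0.391), where without LKO-NC replicate 1 the difference was -1.69.

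The chains of type I, the main collagen of scars, were also highest in LKO-NC. Col1a1 was at 4.90, 7.27 and 3.89 CPM among floxed controls, 20.7 and 13.6 CPM among cre controls, 3.02, 7.97 and 4.31 CPM among floxed NIAAA livers and 4.72, 4.97 and 8.32 CPM among cre NIAAA livers. Col1a2 was at 5.67, 9.34 and 6.35 CPM among floxed controls, 21.1 and 18.1 CPM among cre controls, 5.49, 17.2 and 6.00 CPM among floxed NIAAA livers and 8.88, 4.82 and 11.4 CPM among cre NIAAA livers. The other 3 groups overlapped in both genes. The average feeding effect was -0.79 for Col1a1 (SE 0.283, edgeR adjusted p = 0.121) and -0.40 for Col1a2 (SE 0.323, edgeR adjusted p = 0.501), neither of them called. In cre mice the differences were -1.51 for Col1a1 (edgeR adjusted p = 0.0883) and -1.23 for Col1a2 (edgeR adjusted p = 0.185).

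The type I trimer usually holds more of the Col1a1 chain than of the Col1a2 chain. Per length, the Col1a1 transcript was at 0.375 to 0.908 of Col1a2 in the 11 libraries. The FPKM ratio of Col3a1 to Col1a1 was 3.01 to 4.61 in the 5 control libraries and 1.77 to 2.96 in the 6 libraries of the NIAAA model. That ratio was looked at after the values of both genes were seen and was not tested.

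The remaining fibrillar chains were lower. Col5a1 and Col5a2, chains of type V that help to start fibrils, ranged from 2.61 to 10.1 CPM and from 2.35 to 5.70 CPM, and Col11a2, a chain known from cartilage, from 1.17 to 8.57 CPM with its maximum in FLOX-ALD replicate 2. Col24a1, a fibrillar chain known from bone, stood between 0.377 and 1.13 CPM in the control libraries and between 0.0485 and 0.368 CPM under the NIAAA model, without overlap. Its average difference was -1.93 (SE 0.567, edgeR adjusted p = 0.0696) on at most 52 counts per library.

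As a class, 8 of the 9 fibrillar chains tested had a negative average feeding effect, with a median of -0.79 on the log2 scale beside 0.04 over all genes tested. Of the 9, 3 were called lower and none higher, beside 2.41% and 2.2% of all genes. In cre mice 9 of 9 were negative with a median of -1.51 (all genes 0.00), 7 did not overlap between the feeding groups, and 1 was called. There, 19.6% of all genes lay lower without overlap and 0.663% were called lower. In floxed mice 5 of 9 were negative with a median of -0.07 (all genes 0.07). These chains share cells and libraries and are not independent of each other.

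Col18a1 (ENSMUSG00000001435, chromosome 10, 77052178 to 77166548, - strand, mm10) encodes the endostatin-bearing chain described above and had close values on control feeding, with 484, 494 and 481 CPM among floxed controls and 475 and 499 CPM among cre controls. FLOX-ALD had 346, 474 and 381 CPM and LKO-ALD had 311, 325 and 243 CPM. Every library of the model lay below every control library, although FLOX-ALD replicate 2 reached the lowest control value to within 1 CPM. The average feeding effect was -0.51 on the log2 scale (SE 0.164), a 1.42-fold difference that missed the threshold by edgeR (adjusted p = 0.0923) and passed it by DESeq2 (adjusted p = 0.00826).

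In cre mice the Col18a1 difference was -0.73 (SE 0.243, edgeR adjusted p = 0.132, DESeq2 adjusted p = 0.0173), and in floxed mice it was -0.28 (SE 0.220, edgeR adjusted p = 0.644). Transcripts from the upstream start of the gene held 55.4% to 73.3% of its FPKM and long transcripts from the downstream start 26.5% to 44.0%, with overlapping ranges in the 4 groups. The gene overlaps Slc19a1, on the opposite strand, over 8825 bases, and the strand setting of the counting is not given in the sources used here.

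Col4a1 (ENSMUSG00000031502, chromosome 8, 11198423 to 11312826, - strand, mm10) and Col4a2 (ENSMUSG00000031503, chromosome 8, 11312805 to 11449287, + strand, mm10) encode the chains of the common type IV network and lie head to head, overlapping by 22 bases. Col4a1 stood at 13.6, 14.3 and 12.2 CPM among floxed controls, 39.1 and 23.8 CPM among cre controls, 25.9, 22.9 and 15.3 CPM among floxed NIAAA livers and 44.5, 29.9 and 52.6 CPM among cre NIAAA livers. Col4a2 stood at 8.34, 10.5 and 7.53 CPM among floxed controls, 14.8 and 13.4 CPM among cre controls, 11.1, 12.5 and 10.5 CPM among floxed NIAAA livers and 21.7, 19.1 and 26.7 CPM among cre NIAAA livers. FLOX-NC was lowest and LKO-ALD highest on average for both genes, and on each feeding every cre library lay above every floxed library.

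Neither chain was called in any of the 6 comparisons by edgeR. Between the genotypes under the NIAAA model, Col4a2 differed by 0.98 on the log2 scale (SE 0.205, unadjusted p = 0.000381 by edgeR, edgeR adjusted p = 0.341, DESeq2 adjusted p = 0.00580) and Col4a1 by 0.99 (SE 0.268, edgeR adjusted p = 0.435). On control feeding the genotype difference was 1.23 for Col4a1 (SE 0.294, edgeR adjusted p = 0.594) and 0.68 for Col4a2 (SE 0.225, edgeR adjusted p = 0.711). The average feeding effect was 0.55 for Col4a1 (SE 0.202, edgeR adjusted p = 0.126) and 0.52 for Col4a2 (SE 0.154, edgeR adjusted p = 0.0691). Per length the Col4a1 transcript was at 1.31 to 2.55 of Col4a2 in the 11 libraries.

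The other basement membrane chains were low. Col15a1, a multiplexin of vessel and muscle basement membranes, reached 4.79, 5.33 and 2.53 CPM among floxed controls, 6.04 and 2.81 CPM among cre controls, 15.8, 4.94 and 8.10 CPM among floxed NIAAA livers and 6.07, 6.04 and 2.53 CPM among cre NIAAA livers. Its highest value was in FLOX-ALD replicate 1, the groups overlapped, and its difference in floxed mice was 1.19 (SE 0.487, edgeR adjusted p = 0.328), or 0.62 without FLOX-ALD replicate 1 (edgeR adjusted p = 0.648). Col4a3, Col4a4, Col4a5 and Col4a6, chains known from kidney and other specialised basement membranes, stayed at or under 3.55 CPM in every library. Of the 8 basement membrane chains tested, 5 were positive and 3 negative in the average feeding effect, with a median of 0.33 (all genes 0.04), and none was called by edgeR. An unadjusted p under 0.05 was found for 3 of them, beside 22.7% of all genes, and DESeq2 called Col18a1 lower and Col4a2 higher, beside 11.6% of all genes.

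**Figure D3:**
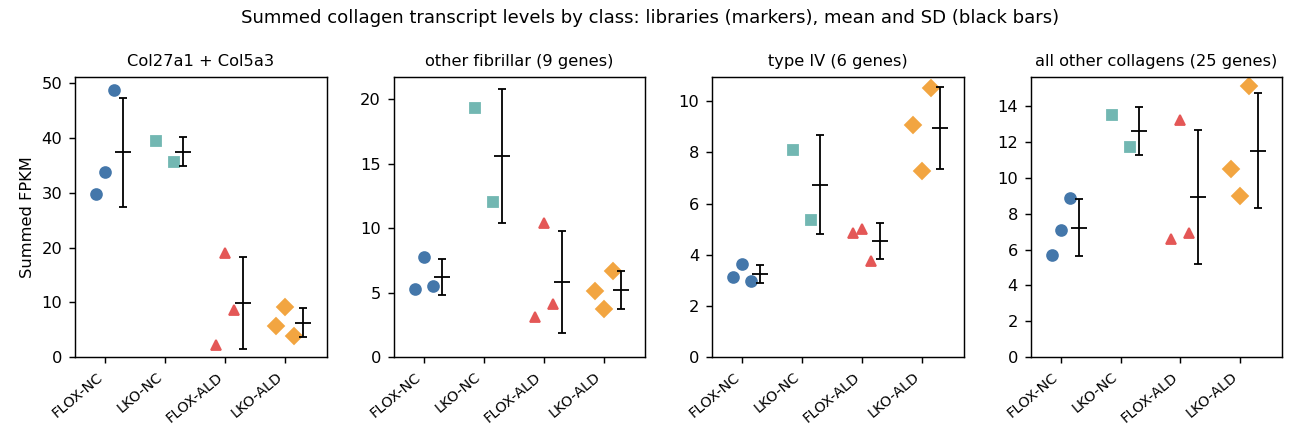
Summed FPKM per library (markers, by group) of 4 sets of collagen genes, with group means and SD in black, on axes that start at 0. Col27a1 with Col5a3 is lower in all libraries of the NIAAA model, the other fibrillar chains are highest in LKO-NC, and type IV is highest on average in LKO-ALD.

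Among the other collagens, Col13a1 (ENSMUSG00000058806, chromosome 10, 61838236 to 61979108, - strand, mm10), a transmembrane collagen of cell adhesion sites, was the only one called by edgeR in any comparison. It stood at 2.69, 2.75 and 4.13 CPM among floxed controls and 3.81 and 4.67 CPM among cre controls, against 4.30, 10.9 and 5.26 CPM among floxed NIAAA livers and 9.22, 10.1 and 19.7 CPM among cre NIAAA livers. Within each genotype every library of the model lay above every control library, and over both genotypes only FLOX-ALD replicate 1 fell into the control range. Over both genotypes Col13a1 rose by 1.36 on the log2 scale (SE 0.300, 2.56-fold higher, edgeR adjusted p = 0.0276). Floxed mice alone differed by 1.10 (SE 0.392, edgeR adjusted p = 0.270) and cre mice by 1.62 (SE 0.456, edgeR adjusted p = 0.0917).

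The average effect on Col13a1 was called in 6 of 11 fits with 1 library left out and lost without any 1 of FLOX-NC replicates 1 and 2, LKO-NC replicates 1 and 2 or LKO-ALD replicate 3, with an edgeR adjusted p of up to 0.129. Without FLOX-ALD replicate 1 it was 1.49 (edgeR adjusted p = 0.0237), and without that library and LKO-NC replicate 1 it was 1.41 (edgeR adjusted p = 0.104). One of its protein-coding transcripts, ENSMUST00000105453, was at 1.68, 2.37 and 3.56 FPKM in LKO-ALD and at 0.005 FPKM or less in the other 8 libraries. The assignment of reads among overlapping transcripts of a gene is uncertain, and this difference was not tested.

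The filament chains of type VI, which anchor cells to fibrils, were led by Col6a1 at 5.39, 5.58 and 8.34 CPM among floxed controls, 15.5 and 10.9 CPM among cre controls, 4.82, 12.4 and 6.05 CPM among floxed NIAAA livers and 6.85, 5.87 and 6.57 CPM among cre NIAAA livers. Col6a3 had 6.01, 6.59 and 7.41 CPM among floxed controls, 13.4 and 11.7 CPM among cre controls, 3.27, 12.7 and 6.20 CPM among floxed NIAAA livers and 6.95, 6.02 and 5.28 CPM among cre NIAAA livers. Both had their high values in LKO-NC and in FLOX-ALD replicate 2. Col6a2 was also highest in LKO-NC, with 1.26, 3.28 and 2.81 CPM among floxed controls, 4.98 and 5.25 CPM among cre controls, 1.79, 2.89 and 2.36 CPM among floxed NIAAA livers and 3.33, 2.01 and 3.43 CPM among cre NIAAA livers.

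In cre mice the type VI differences with feeding were -1.04 for Col6a1 (SE 0.369, edgeR adjusted p = 0.153), -1.05 for Col6a3 (SE 0.415, edgeR adjusted p = 0.192) and -0.81 for Col6a2 (SE 0.418, edgeR adjusted p = 0.310), none of them called.

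Of the collagens that sit on the surface of fibrils (FACIT), Col14a1 was the most abundant, with 11.5, 13.5 and 12.5 CPM among floxed controls, 17.3 and 21.5 CPM among cre controls, 11.9, 16.3 and 9.74 CPM among floxed NIAAA livers and 17.8, 9.92 and 21.1 CPM among cre NIAAA livers. Only LKO-NC against FLOX-NC was without overlap (log2 difference 0.63, SE 0.307, edgeR adjusted p = 0.781). Col20a1, another FACIT, had 1.47, 1.18 and 4.92 CPM among floxed controls, 1.82 and 4.23 CPM among cre controls, 5.81, 4.62 and 2.10 CPM among floxed NIAAA livers and 3.93, 2.94 and 9.82 CPM among cre NIAAA livers, with overlapping groups throughout.

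Col8a1, a short-chain collagen of vessel walls, was nearly undetected in FLOX-NC, with 3, 3 and 10 counts (0.0492, 0.0620 and 0.202 CPM). It stood at 1.13 and 0.354 CPM among cre controls, 0.353, 1.67 and 0.718 CPM among floxed NIAAA livers and 0.511, 0.631 and 0.503 CPM among cre NIAAA livers, so that FLOX-NC lay below every library of the other 3 groups. In floxed mice the feeding difference was 3.12 on the log2 scale (SE 0.788, edgeR adjusted p = 0.141, DESeq2 adjusted p = 0.00967), and the interaction was -3.55 (SE 1.09, edgeR adjusted p = 0.498). The size of both rests on single libraries. The feeding difference was 3.99 without FLOX-NC replicate 3 and 2.32 without FLOX-ALD replicate 2. The interaction ran from -4.42 without FLOX-NC replicate 3 to -2.49 without LKO-NC replicate 1. It also moved, within that range, without LKO-NC replicate 2 and without FLOX-ALD replicate 2.

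Col7a1, the chain of anchoring fibrils, had 0.869, 0.496 and 0.911 CPM among floxed controls, 1.49 and 1.98 CPM among cre controls, 0.967, 2.47 and 1.64 CPM among floxed NIAAA livers and 0.859, 0.696 and 1.39 CPM among cre NIAAA livers. FLOX-NC lay below FLOX-ALD and LKO-ALD below LKO-NC, each without overlap, as in 9.42% and 19.6% of all genes. Of the 17 other chains tested, 7 were positive and 10 negative in the average feeding effect, with a median of -0.16 (all genes 0.04). Of these chains 1 was called higher and none lower, beside 2.2% and 2.41% of all genes. Those not named here reached at most 3.49 CPM in any library.

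**Figure D4:**
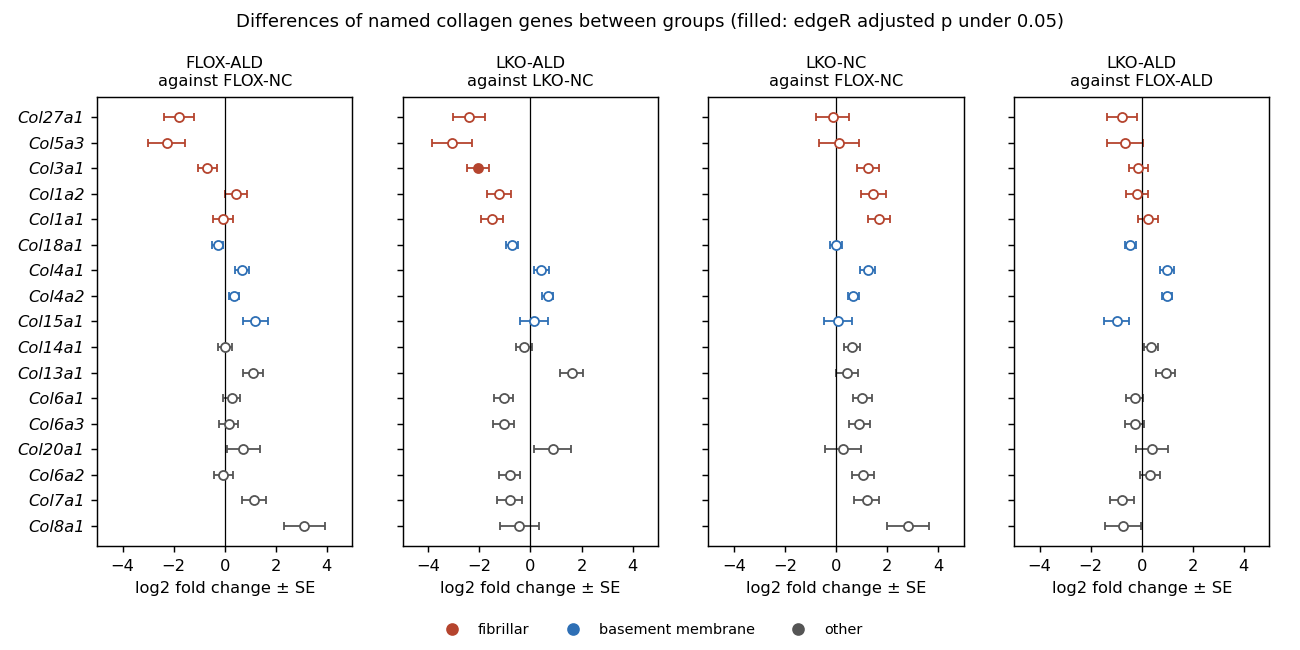
Log2 fold changes with SE (horizontal) of 17 named collagen genes (rows, coloured by class) in 4 comparisons between groups, filled where called by edgeR. Col3a1 in LKO-ALD against LKO-NC is the single filled point. The 5 fibrillar genes shown lie left of 0 in that comparison and Col4a1 and Col4a2 lie right of 0 in all 4.

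Feeding in floxed mice alone gave no collagen call by edgeR (0 of 34, where 0.221% of all genes were called). At an unadjusted p under 0.05 there were 8 members, against 13.1% of all genes, and DESeq2 called 3, Col27a1 and Col5a3 lower and Col8a1 higher, against 3.17% of all genes. Of the 34 members, 21 were positive, with a median of 0.21. The libraries did not overlap in 5 higher and 5 lower members, beside 9.42% and 9.96% of all genes. In cre mice 10 were positive and 24 negative, with a median of -0.65 (all genes 0.00). There 2 members lay higher and 13 lower without overlap, beside 20.1% and 19.6% of all genes, and 12 had an unadjusted p under 0.05, beside 19.5%. DESeq2 called 6 members there, Col27a1, Col5a3, Col3a1, Col1a1 and Col18a1 lower and Col13a1 higher, against 7.60% of all genes.

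Between the genotypes on control feeding, no collagen gene was called by edgeR (0 of 34, with 0.0105% of all genes called) or by DESeq2 (0.316% of all genes), while 11 had an unadjusted p under 0.05 against 6.52% of all genes. Of the 34 members, 29 were higher in LKO-NC, with a median log2 difference of 0.71 beside 0.00 over all genes. In 16 of them both LKO-NC libraries lay above all 3 FLOX-NC libraries, where 15.1% of all genes did so, and in 1 both lay below (13.9% of all genes). The smallest unadjusted p belonged to Col4a1 (0.00113) and Col1a1 (0.00158), and the difference of Col1a1 was 1.68 on the log2 scale (SE 0.419, 3.21-fold, edgeR adjusted p = 0.607). Col3a1 differed by 1.24 (SE 0.422, edgeR adjusted p = 0.740) and Col1a2 by 1.46 (SE 0.477, edgeR adjusted p = 0.704).

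The other 9 fibrillar chains (all but Col27a1 and Col5a3) summed to 36.1, 53.7 and 38.3 CPM among floxed controls and to 122 and 84.1 CPM among cre controls. In FLOX-ALD this sum was 23.9, 69.1 and 28.7 CPM and in LKO-ALD 36.0, 24.9 and 45.8 CPM. LKO-NC stood apart from all other libraries. With only 2 libraries in that group, leaving out replicate 1 lowered the Col1a1 difference to 1.34 and the Col4a1 difference to 0.82, and leaving out replicate 2 raised them to 1.96 and 1.55.

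Levels of markers of other cell types stand beside these differences, and none of them was called between LKO-NC and FLOX-NC by edgeR or DESeq2. The 10 portal fibroblast markers summed to 9.87 to 11.0 CPM among floxed controls, 19.7 to 22.2 CPM among cre controls, 10.0 to 33.0 CPM among floxed NIAAA livers and 13.4 to 24.2 CPM among cre NIAAA livers, with the maximum in FLOX-ALD replicate 2. All 10 of them were higher on average in LKO-NC than in FLOX-NC (median 1.04). Gli1 was at 0 counts in 3 libraries and Pi16 in 1. The 12 endothelial markers summed to 201 to 225 CPM among floxed controls, 283 to 289 CPM among cre controls, 237 to 344 CPM among floxed NIAAA livers and 251 to 408 CPM among cre NIAAA livers.

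The stellate cell markers without Steap4 summed to 102 to 165 CPM among floxed controls, 162 to 185 CPM among cre controls, 135 to 346 CPM among floxed NIAAA livers and 204 to 280 CPM among cre NIAAA livers. Steap4 was set aside after its values, 40.1 to 2240 CPM, were seen. With it the 15 markers summed to 224 to 259 CPM, 330 to 375 CPM, 270 to 891 CPM and 469 to 2520 CPM in the same order. The 9 hepatocyte markers matched summed to 126000 to 130000 CPM among floxed controls, 86900 and 135000 CPM among cre controls, 75500 to 146000 CPM among floxed NIAAA livers and 80000 to 110000 CPM among cre NIAAA livers. Sums of the remaining lists overlapped between the control groups. Bile duct markers summed to 101 to 146 CPM among floxed controls and 118 to 123 CPM among cre controls. Smooth muscle markers summed to 99.8 to 137 CPM and 110 to 135 CPM, and mesothelial markers to 1.11 to 3.12 CPM and 1.75 to 1.88 CPM. The part of these cell types in the collagen differences was not tested.

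Under the NIAAA model, no collagen gene was called between the genotypes by edgeR, which called 0.0% of all genes there. DESeq2 called Col4a2 higher in LKO-ALD, against 0.652% of all genes, and 3 members had an unadjusted p under 0.05 (8.05% of all genes). The median over the 34 members was -0.12, with 15 positive. Col4a1 and Col4a2 were the 2 members whose LKO-ALD libraries all lay above FLOX-ALD, where 6.35% of all genes did so, and Col18a1 the one whose libraries all lay below (6.26%).

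No collagen gene was called in the interaction of feeding and genotype by edgeR (0.00526% of all genes called) or DESeq2 (0.405%). At an unadjusted p under 0.05 there were 8 members against 9.37% of all genes. Col28a1 is among the 8, although it was at 0 counts in most libraries and at 17 or fewer in all. The interaction was negative in 27 of 34 members, with a median of -0.82 beside -0.05 over all genes, and in 9 of the 9 fibrillar chains. The groups LKO-NC and FLOX-NC enter this contrast and the feeding contrasts alike, so the values are not independent of each other.

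Genes that act on collagen were read from lists of known members. Of 29 tested genes of collagen folding, modification and cross-linking, none was called in any of the 6 comparisons by edgeR. In the average feeding effect 3 had an unadjusted p under 0.05 (22.7% of all genes) and DESeq2 called 1 (P3h1, higher), beside 11.6% of all genes. In LKO-NC against FLOX-NC, 16 of the 29 lay higher without overlap and 1 lower, beside 15.1% and 13.9% of all genes. P4hb, a subunit of prolyl hydroxylase, averaged 982 ± 152 CPM among floxed controls, 987 ± 397 in LKO-NC, 1340 ± 513 in FLOX-ALD and 1520 ± 309 in LKO-ALD, and Ppib, a proline isomerase of the procollagen helix, 251 ± 4.65, 201 ± 99.9, 299 ± 88.6 and 264 ± 67.0 CPM in the same order.

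Of 15 tested genes of matrix degradation, Mmp14, a membrane-bound metalloproteinase that cleaves fibrillar collagen, rose with feeding and was the only one called by edgeR, beside 4.61% of all genes (2.2% higher). An unadjusted p under 0.05 was found for 5 of the 15, beside 22.7% of all genes, and DESeq2 called Mmp14 higher and Mmp12 lower, beside 11.6%. Mmp14 stood at 15.6, 13.5 and 11.5 CPM among floxed controls, 24.2 and 23.4 CPM among cre controls, 51.3, 25.7 and 24.7 CPM among floxed NIAAA livers and 31.0, 39.5 and 39.5 CPM among cre NIAAA livers, every library of the model above every control library. The average increase was 0.97 on the log2 scale (SE 0.204, edgeR adjusted p = 0.0231), called in 7 of 11 fits with 1 library left out and lost without FLOX-NC replicate 2 or 3 or without either LKO-NC library (edgeR adjusted p up to 0.0926).

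None of 10 collagen receptors, 17 genes of TGF-β and PDGF signalling or 22 other matrix genes was called by edgeR in any comparison. In the average feeding effect, 3, 5 and 7 of them had an unadjusted p under 0.05, beside 22.7% of all genes, and DESeq2 called 2, 2 and 4, beside 11.6%. In LKO-NC against FLOX-NC, 4, 8 and 11 lay higher without overlap, beside 15.1% of all genes. In the same order 0, 3 and 1 lay lower, beside 13.9%. The integrin chain Itgb1 averaged 115 ± 21.8 CPM among floxed controls, 92.6 ± 12.5 in LKO-NC, 86.9 ± 15.6 in FLOX-ALD and 109 ± 5.46 in LKO-ALD. Fibronectin, Fn1, averaged 965 ± 131, 859 ± 184, 987 ± 442 and 1580 ± 600 CPM in the same order.

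Of the cell type markers, Hgf, a growth factor of stellate cells, rose by 1.35 on the log2 scale (SE 0.269, edgeR adjusted p = 0.0191), and Lyve1, a hyaluronan receptor of sinusoidal endothelium, rose by 1.26 (SE 0.269, edgeR adjusted p = 0.0247). Tff3, a secreted peptide listed with bile duct markers, fell by 2.67 (SE 0.632, edgeR adjusted p = 0.0451). Of the 10 bile duct markers, however, 6 were positive and 4 negative, with a median of 0.18. These differences are averages over both genotypes, in which 4.61% of all genes were called. Of 15 stellate cell and 12 endothelial markers, 13 and 11 were positive, beside 52.7% of all genes, with medians of 0.64 and 0.49. An unadjusted p under 0.05 was found for 8 and 7 of them, and for 3 of the bile duct markers, beside 22.7% of all genes. DESeq2 called 4 stellate cell markers higher and 1 lower, 3 endothelial markers higher and 1 bile duct marker lower, beside 11.6% of all genes. With 1 library left out, the call of Hgf held in 8 of 11 fits and was lost without FLOX-NC replicate 1, FLOX-NC replicate 2 or LKO-NC replicate 2 (edgeR adjusted p up to 0.0707). That of Lyve1 held in 6 and was lost without FLOX-NC replicate 1 or 2, either LKO-NC library or LKO-ALD replicate 1 (edgeR adjusted p up to 0.109). That of Tff3 held in 2, those without FLOX-ALD replicate 1 or 2 (edgeR adjusted p up to 0.171). Of the 10 portal fibroblast, 8 smooth muscle, 5 mesothelial and 9 hepatocyte markers tested, none was called by edgeR in any comparison, while 2, 1, 1 and 2 had an unadjusted p under 0.05 in the average feeding effect (22.7% of all genes) and DESeq2 called 1 in each list (11.6% of all genes).

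Over the 11 libraries, which differ in group and depth alike, the genes whose log2 CPM followed Col1a1 most closely among 10763 compared were Cers5, Otud7b, Col1a2, Col3a1 and Vim, with Pearson's r of 0.902, 0.897, 0.896, 0.884 and 0.884. For Col18a1 they were Abca8b, Tk1, Smg6, Gm43500 and Slc6a13, with r of 0.967, 0.963, 0.961, 0.954 and 0.953. These are the highest of many values over libraries that fall into groups, and they are given as a description.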

How the data were processed

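Per the labels' protocols, liver mRNA was sequenced after KAPA stranded and SMARTER kits. StringTie, HISAT2, edgeR, cutadapt and FastQC, with the build mm10, are named in the submitters' processing notes, which give no versions. The authors deposited estimated counts per gene and transcript, already whole numbers, and FPKM values per gene and transcript. For transcripts with at least 200 counts, FPKM matched the count over length to 0.42% after a factor per library. The third LKO-NC sample of the 12 labelled had no values in the data used here and was not analysed, which left 11 libraries. The sources used here give no counting parameters.

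Genes with low counts were removed with filterByExpr (minimum count 10, minimum total 15), leaving 19014 of 55401. Counts were scaled by TMM and fitted with the robust quasi-likelihood model of edgeR 4.0.16 in R 4.3.3, with 1 mean per group over all 4 groups (7 residual and 5.51 prior degrees of freedom, biological coefficient of variation 42.2%). There were 6 contrasts, with Benjamini-Hochberg adjustment over all genes and a threshold of 0.05. Standard errors were derived from each log2 fold change and its F statistic. Alternatives were DESeq2 1.42.0, limma 3.58.1 on counts (voom) and on log2(FPKM + 0.1) or log2(FPKM + 1), other scaling, no filter, removal of 37 mitochondrial genes, a block by title number, and leaving out each library. The scripts were tested on simulated counts with changes set in FLOX-ALD and less spread than in these libraries. That check was passed on the median size of the recovered differences. It does not show how well genes are called at the spread of these data. Within each group, replicates differed far beyond counting noise (41.6 to 882 chi-square units per degree of freedom), so none was a repeat sequencing of another. This does not show that they came from separate animals. Libraries of different groups were not compared in this way. Counts cover reads, not molecules, and depth limits the low members.

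The collagen genes, their classes and the gene lists were chosen with earlier results of these data known, and the lists give no independent support. Named in full were members called in any contrast, the 4 fibrillar, 4 basement membrane and 6 other members of highest mean FPKM, and the 2 members of smallest unadjusted p per contrast. From each companion list, called members were named, or otherwise up to 2 of highest FPKM. Upstream sequences are from RefSeq (GRCm38.p6), matched by symbol for 35 of 44 members.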

Additional observations from a re-analysis of the deposited data

Results flagged for a closer look

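The feeding differences of Col7a1 had opposite signs in the 2 genotypes. The log2 difference was 1.15 in FLOX-ALD against FLOX-NC and -0.82 in LKO-ALD against LKO-NC, and in each genotype the libraries of the feeding groups did not overlap. Of all genes, 9.42% lay higher without overlap in floxed mice and 19.6% lower in cre mice. The gaps were narrow. FLOX-NC reached 0.911 CPM against 0.967 CPM in FLOX-ALD replicate 1, the library that went against its label of sex. LKO-ALD reached 1.39 CPM against 1.49 CPM in LKO-NC. The interaction was -1.97 (SE 0.684, unadjusted p = 0.0131 by edgeR) and did not pass the threshold after adjustment (edgeR adjusted p = 0.498). The gene held 24 to 130 counts per library. Groups of 2 or 3 libraries were too small for a test of single outlying libraries.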

How the results depend on the processing

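Under 20 alternatives, 2006 log2 differences of 17 named members were compared with the main fit. Of these, 0 called values changed sign, while 80 values called in neither fit did. A call was lost in 40 values and gained in 18. The 40 lost calls come from few main calls, 4 genes for the average effect and 1 in cre mice, so the calls were often lost. The count of collagen genes called also moved. With DESeq2 it was 3 in place of 0 for feeding in floxed mice, 6 in place of 1 for feeding in cre mice, 1 in place of 0 between genotypes under the NIAAA model and 7 in place of 4 for the average feeding effect. For feeding in cre mice it was 0 with limma on log2(FPKM + 0.1), with mitochondrial genes removed and without both FLOX-ALD replicate 1 and LKO-NC replicate 1, an alternative chosen after seeing the data. For the average effect it was 2 with no filter on low counts and 1 without those 2 libraries. Leaving out each library in turn gave 0 to 4 calls for feeding in cre mice and 0 to 6 for the average effect (0 without FLOX-NC replicate 1, FLOX-NC replicate 2 or LKO-NC replicate 1), and 0 in the other 4 comparisons. The cause was not tested. The correlation of deviations from group means between same-numbered libraries was -0.05 to 0.078, and only number 1 correlated best with itself. With 2 or 3 libraries in a group, these values cannot decide whether the title numbers pair the libraries. With the replicate block 0 collagen genes were called for feeding in cre mice and 3 for the average effect. Over all genes, DESeq2 called 602 in place of 42 for feeding in floxed mice, 1445 in place of 182 in cre mice and 2197 in place of 877 for the average effect. Leaving out 1 LKO-NC library left a lone sample, which was assumed to vary like the other groups.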
